A study of Mus musculus with 60 samples.

Results

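The homeobox and Pax genes that lie outside the Hox clusters were followed in mouse embryonic stem cells that lack a subunit of Polycomb repressive complex 2 (PRC2) and in wild-type cells, before and during culture in 2i. A gene was a member if its symbol was a family stem (Lhx, Nkx, Dlx, Irx, Barhl, Barx, Msx, Emx, En, Gsx, Vax, Hmx, Isl, Alx, Pax, Tlx or that of Six2 and its relatives) followed by a number, or was Uncx, which makes 18 families. The rule reads symbols alone, but it was chosen with earlier results of these data known. It gave 76 members among the 50559 genes counted, and 46 of them passed the filter on low counts and were tested. Polyadenylated RNA was sequenced from 60 libraries in 20 groups, 3 biological replicates for each of 4 lines at 5 times. The lines were the wild types 1A and V19, which were derived independently, and an Ezh2 knockout and an Eed knockout made from 1A with Cas9. All grew on gelatin in serum with leukaemia inhibitory factor (LIF), were sampled there as 0 h, and then received 2i for 12, 24, 48 or 96 h. The 2i pair was the GSK3 inhibitor CHIR99021 at 3 µM and the MEK inhibitor PD0325901 at 1 µM, renewed daily. Each knockout is represented by a single line, so the effect of the lost gene and that of anything else peculiar to the line cannot be told apart, and all comparisons with 1A share the same 1A libraries.

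Homeobox genes encode transcription factors that bind DNA through a homeodomain, and Pax proteins bind through a paired domain, which some of them combine with a homeodomain. In the embryo each family marks out positions and cell identities, such as eye, limb, heart, gut, kidney or a level of the neural tube. In embryonic stem cells their start sites are a textbook class of PRC2 targets: Ezh2 is its main enzyme, which places a repressive methyl mark on a histone tail, and Eed is a core subunit that this activity needs. The Ezh2 paralogue Ezh1 can occupy the catalytic place, whereas Eed has no paralogue. Many of these start sites lie in DNA rich in the dinucleotide CG.

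Depth was 2561169 to 11065948 assigned reads per library, with a median of 6055990. Levels are given as CPM, reads scaled to a common library size by the trimmed-mean method. The targeted genes were low in the lines labelled as their knockouts: Ezh2 RNA read 14.5 to 19.9 CPM over all Ezh2 knockout libraries and 194 to 278 CPM over those of 1A wild type, and Eed RNA read 15.3 to 28.2 CPM over all Eed knockout libraries against 246 to 393 CPM. The library farthest from its group was replicate 2 of V19 at 48 h, whose deviation (root mean square, log2 scale) was 0.439 against a median of 0.226, followed by replicate 3 of the same group at 0.349 and the shallowest library, replicate 3 of 1A wild type at 48 h, at 0.343. None of these 3 libraries enters a test at 0 h or 96 h other than through the shared estimate of the spread. When the fit omitted the 12 h libraries of each knockout, the 48 h libraries of V19 and the first 24 h library of 1A, the Eed knockout comparison at 0 h gave 38 called members in place of 36. The pluripotency list (Pou5f1, Sox2, Nanog, Zfp42, Esrrb, Klf4, Dppa4, Utf1) summed to 4270 to 4410 CPM in 1A wild type at 0 h, with no gene of the list at 0.

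Promoter sequences were available for 55 of the 76 members from RefSeq (GRCm38.p6) and are shown for 6 members on which the results below turn. Each is the 250 bases before the annotated start, on the strand of the gene, with every CG in capitals. Barx1 (chr13:48662786-48663035, plus strand), Irx4 (chr13:73260247-73260496, plus), Six2 (chr17:85688255-85688504, minus) and Msx2 (chr13:53472781-53473030, minus) had higher RNA levels in the Eed knockout. Gsx1 (chr5:147188446-147188695, plus) and Nkx1-2 (chr7:132599638-132599887, minus) changed in opposite directions in 2i.
Barx1: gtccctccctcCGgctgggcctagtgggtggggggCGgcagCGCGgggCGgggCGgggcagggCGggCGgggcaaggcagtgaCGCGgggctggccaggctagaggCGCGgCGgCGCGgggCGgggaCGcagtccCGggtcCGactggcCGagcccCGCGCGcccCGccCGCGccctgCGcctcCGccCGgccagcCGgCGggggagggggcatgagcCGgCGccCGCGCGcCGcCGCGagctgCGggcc
Irx4: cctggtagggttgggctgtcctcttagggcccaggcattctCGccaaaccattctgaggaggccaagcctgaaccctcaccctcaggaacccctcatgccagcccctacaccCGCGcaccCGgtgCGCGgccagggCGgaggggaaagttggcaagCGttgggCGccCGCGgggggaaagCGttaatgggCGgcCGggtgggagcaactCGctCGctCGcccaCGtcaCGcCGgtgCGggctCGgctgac
Six2: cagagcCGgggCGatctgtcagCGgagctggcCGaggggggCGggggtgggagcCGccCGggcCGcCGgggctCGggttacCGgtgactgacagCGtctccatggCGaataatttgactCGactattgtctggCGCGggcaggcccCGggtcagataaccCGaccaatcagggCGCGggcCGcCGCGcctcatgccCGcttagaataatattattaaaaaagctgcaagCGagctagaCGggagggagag
Msx2: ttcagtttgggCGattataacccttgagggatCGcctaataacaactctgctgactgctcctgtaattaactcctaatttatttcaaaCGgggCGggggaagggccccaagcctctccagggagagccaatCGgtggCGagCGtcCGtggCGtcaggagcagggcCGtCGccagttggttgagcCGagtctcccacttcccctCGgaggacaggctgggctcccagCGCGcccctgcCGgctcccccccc
Gsx1: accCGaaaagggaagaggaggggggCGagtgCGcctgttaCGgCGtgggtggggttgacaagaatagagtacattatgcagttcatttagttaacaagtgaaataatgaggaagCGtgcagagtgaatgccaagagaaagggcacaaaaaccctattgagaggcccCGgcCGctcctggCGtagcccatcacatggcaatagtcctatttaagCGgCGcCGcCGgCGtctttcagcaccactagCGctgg
Nkx1-2: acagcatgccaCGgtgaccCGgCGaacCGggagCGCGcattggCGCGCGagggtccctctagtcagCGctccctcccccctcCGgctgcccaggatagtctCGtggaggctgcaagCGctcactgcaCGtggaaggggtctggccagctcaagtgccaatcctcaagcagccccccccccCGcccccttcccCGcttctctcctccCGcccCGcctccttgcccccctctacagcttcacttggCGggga
The count of CG was 40 for Barx1, 22 for Irx4, 26 for Six2, 16 for Msx2, 15 for Gsx1 and 19 for Nkx1-2. Over the 55 members the median was 16 CG per 250 bases, against 5 over all 27025 genes of the promoter table and 15 over the 11427 tested genes in it. A window with at least 10 CG was held by 45 members (81.8%), by 37.7% of all genes and by 71.1% of tested genes. The 4-base core that many homeodomains prefer, TAAT or its reverse complement ATTA, each searched on the strand shown and so covering both strands, stood in 47.3% of member windows, 55.4% of all windows and 39.3% of those of tested genes. Matches may overlap. Msx2 held 5, Six2 4, Gsx1 2 and Irx4 1, and Barx1 and Nkx1-2 held none. These counts describe the letters of the windows; no binding or histone mark was measured here.

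In wild-type cells in serum and LIF, few members had more than a trace of RNA. In 1A wild type at 0 h 21 of the 76 reached a mean of 1 CPM and 6 reached 5 CPM, and in V19 these numbers were 23 and 7. Per kilobase of exon, the order in 1A was led by Six4, which acts in muscle, kidney and sensory placodes, at 10.6 ± 1.01 CPM per kb (SD, n = 3). Of the other members reported here, Nkx6-2, a factor of the ventral neural tube, stood at 3.7 ± 0.64, then Nkx6-3, known from the stomach, at 2.8 ± 0.217, En2, a factor of the midbrain and hindbrain, at 2.38 ± 0.227, and the eye and forebrain gene Pax6 at 2.0 ± 0.36. The gaps between Nkx6-2, Nkx6-3, En2 and Pax6 were of the order of their SDs, so neighbours in this order were not clearly separated. In V19 Six4 led as well, at 8.15 ± 0.353.

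**Figure D1:**
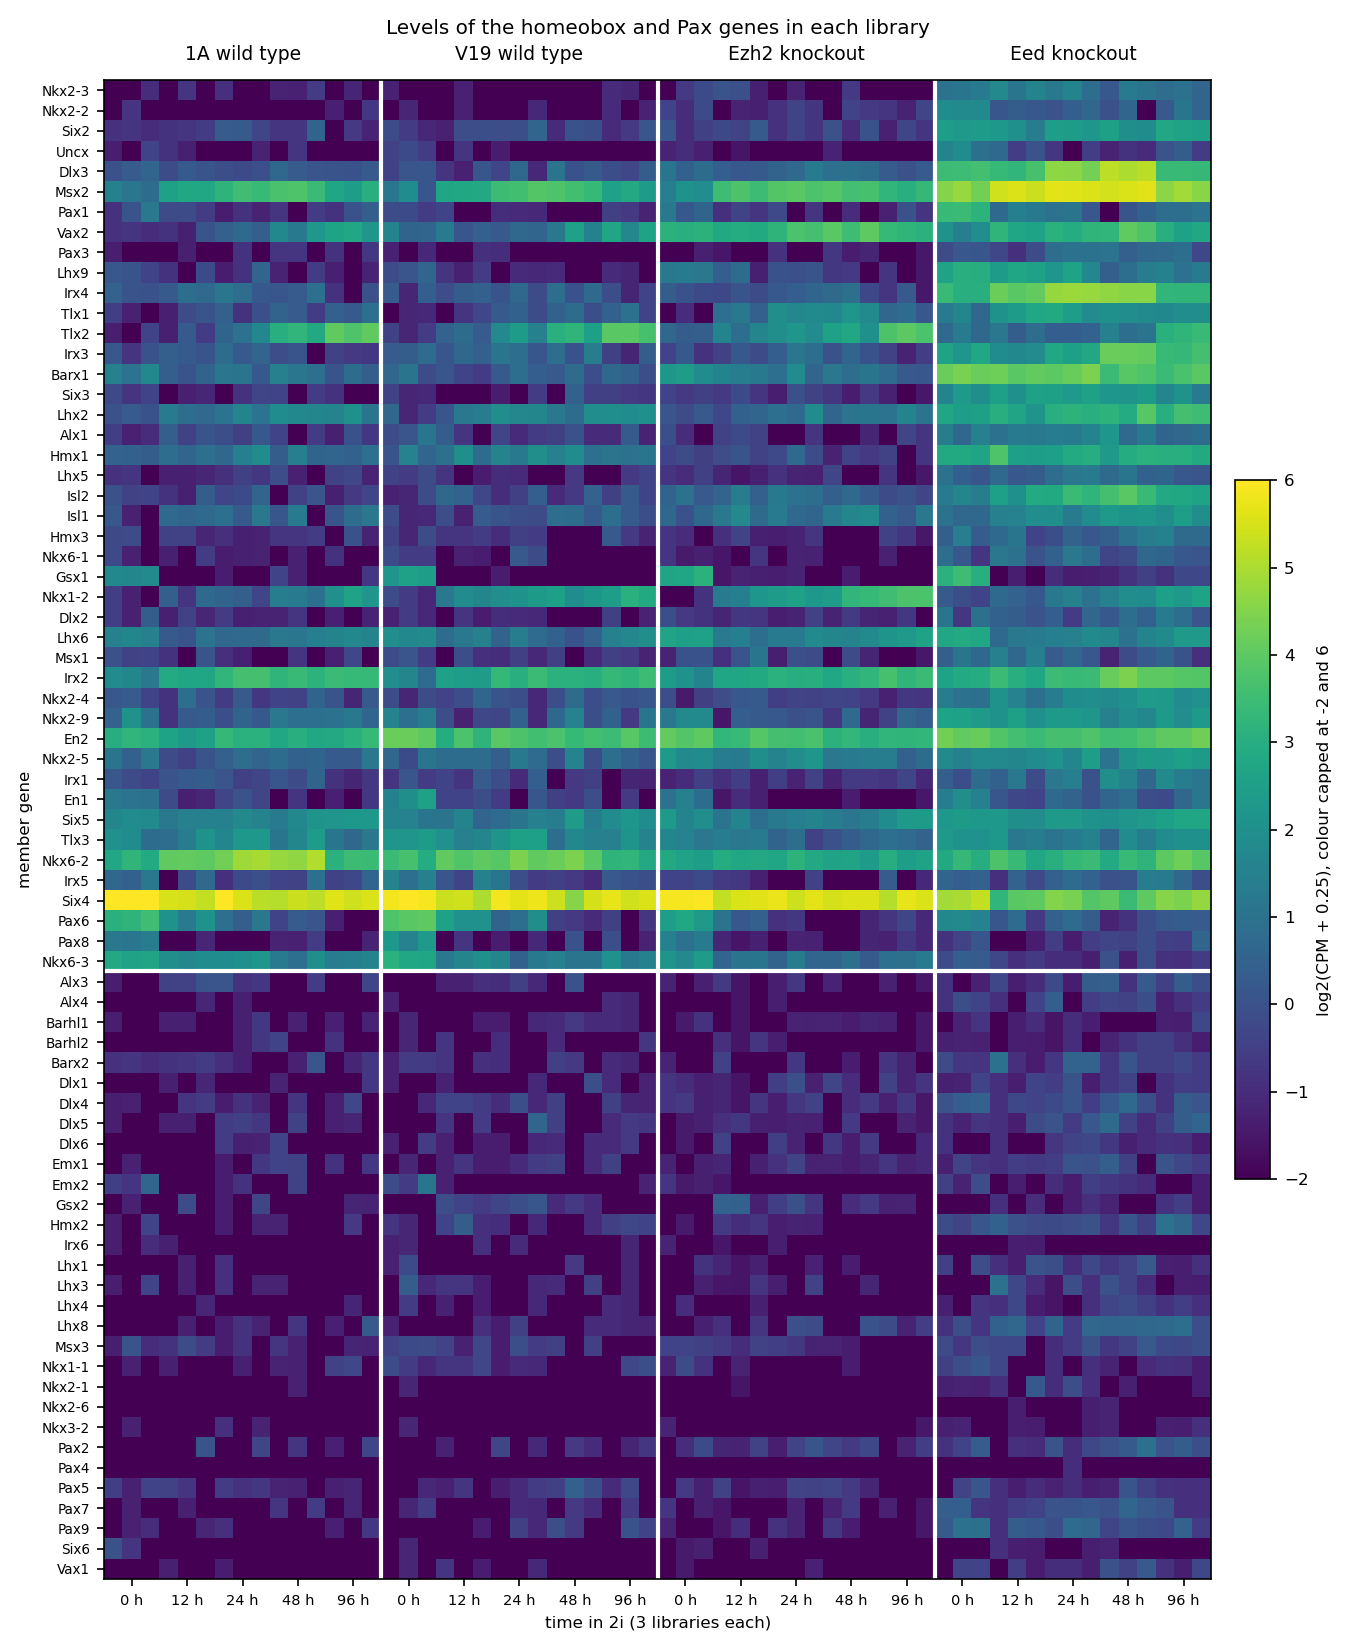
Level of each member reported here in each of the 60 libraries, as log2(CPM + 0.25), with members in rows, libraries in columns grouped by line and time in 2i, and colour capped at -2 and 6. A reader should see that the Eed knockout block holds the most members above a trace (43 of 76 at a mean of 1 CPM or more at 0 h, against 21 in 1A wild type).

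Loss of Eed went with higher RNA levels for most tested members. At 0 h 36 of the 46 tested members were called in either direction, where 49.6% of all 15083 genes tested were. Of these, 31 were higher in the Eed knockout than in 1A wild type, where 26.4% of all genes were higher, and 5 were lower, where 23.3% of all genes were lower. The median log2 difference was 1.61 over the tested members and 0.0022 over all genes. Some members passed the low-count filter only through the groups in which they were high, so these counts and those of the later comparisons describe the tested members and not the whole set. Over all 76 members, tested or not, the mean level was higher in the Eed knockout for 62 and lower for 12. Summed over the 76 members, the level was 277 ± 7.84 CPM in the Eed knockout against 180 ± 8.93 CPM in 1A wild type (SD, n = 3). In bulk RNA, more cells with a gene on and more RNA per cell cannot be told apart.

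Several of the higher members are factors known from limb, face, skin and stomach. Msx2 (chromosome 13, 53620917 to 53626816, GRCm39), a homeodomain repressor downstream of BMP signals, read 2.52, 1.96 and 1.53 CPM in 1A wild type and 22.5, 27.2 and 19.4 CPM in the Eed knockout at 0 h. The lowest knockout library was thus far above the highest wild-type one, with a log2 difference of 3.46 ± 0.20 (SE, edgeR adjusted p = 3.34e-20). Dlx3 (chromosome 11, 95010943 to 95016122), needed in placenta, skin and teeth, read 0.74, 0.98 and 1.27 CPM in wild type and 11, 11.2 and 12 CPM in the knockout. The 3 knockout libraries were tightly grouped and did not overlap with wild type (log2 difference 3.55 ± 0.24, edgeR adjusted p = 3.33e-18). Barx1 (chromosome 13, 48816512 to 48819983), a factor of stomach mesenchyme and jaw, stood at 2.52, 1.8 and 3.05 CPM against 17.6, 20.6 and 17.7 CPM. Its difference of 2.95 ± 0.22 made it the member with the highest level per length in the Eed knockout, at 13.7 ± 1.22 CPM per kb, ahead of Msx2 at 10.7 ± 1.81. Alx1, which acts in craniofacial mesenchyme, was lower in level, with 0.444, 0.163 and 0.254 CPM in wild type against 2.36, 1.39 and 2.53 CPM, and again without overlap.

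Among the Iroquois genes, 3 of 5 tested members were higher and none was lower. Irx4, a ventricular heart factor (chromosome 13, 73407708 to 73417741), read 1.18, 0.817 and 0.763 CPM in 1A wild type and 10.2, 7.84 and 7.77 CPM in the Eed knockout. Irx3 (chromosome 8, 92525139 to 92528282), which patterns the neural tube, read 0.888, 0.327 and 0.763 CPM against 5.82, 4.36 and 6.75 CPM. Both were higher without overlap (log2 differences 3.16 ± 0.29 and 3.07 ± 0.32). Irx2 was 1.23 ± 0.22 higher, but 64.4% of its exon bases also belong to the gene Gm20554 on the opposite strand, and without a stated strand setting the reads of the pair cannot be told apart. For Irx1 and Irx5 the values were 0.63 ± 0.51 and -0.30 ± 0.57, neither past the threshold.

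Six2 and its relatives were called in both directions. Six2 (chromosome 17, 85970276 to 85995682), which maintains nephron progenitors, read 0.296, 0.327 and 0.254 CPM in wild type and 5.19, 4.7 and 5.06 CPM in the Eed knockout. Six3, a forebrain and eye factor whose gene lies 36.7 kb from Six2, read 0.592, 0.327 and 0.509 CPM against 2.83, 4.7 and 3.71 CPM. Neither gene's groups overlapped (log2 differences 3.98 ± 0.41 and 2.92 ± 0.45). Six4 (chromosome 12, 73146383 to 73160805), the member with the highest level in wild type, went the other way, from 71.8, 75.1 and 86.0 CPM to 29.1, 31.7 and 38.5 CPM.

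All 4 tested Lhx genes and both Isl genes, which encode LIM-homeodomain factors, were higher. Lhx2, an eye, forebrain and hair follicle factor, read 0.74, 0.98 and 0.763 CPM in wild type and 6.45, 5.4 and 5.57 CPM in the Eed knockout. For Lhx9, known from gonad development, the values were 0.888, 0.817 and 0.509 CPM against 5.82, 7.84 and 7.6 CPM. Lhx6, a factor of cortical interneurons, rose from a wild-type level of 2.52, 2.94 and 2.54 CPM to 6.77, 7.14 and 6.75 CPM. None of these overlapped, and the log2 differences were 2.78 ± 0.38, 3.16 ± 0.39 and 1.36 ± 0.20. Isl1 and Isl2, both motor neuron factors, were higher by 1.80 ± 0.60 and 2.04 ± 0.48, and the Isl1 call was lost without replicate 2 of 1A wild type (adjusted p = 0.0768).

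The Nkx genes gave 5 higher and 1 lower among 10 tested. Nkx2-2, a factor of the ventral neural tube and pancreatic islets, had 2 reads over the 3 wild-type libraries and 60 over the 3 Eed knockout libraries, a ratio of 28.0 with a 95% counting interval of 7.42 to 236. Nkx2-3, which acts in gut and spleen, had 1 read against 35 (ratio 32.7, interval 5.49 to 1330). These intervals cover counting error only. Nkx2-4, Nkx2-5 and Nkx2-9 were higher by 1.20 ± 0.42, 0.84 ± 0.34 and 1.20 ± 0.34. Each of the 3 calls was lost when certain single libraries were left out: for Nkx2-4 replicate 3 of wild type or replicate 1 of the knockout, for Nkx2-5 replicate 2 of wild type or replicate 1 or 3 of the knockout, and for Nkx2-9 replicate 1 of wild type (adjusted p up to 0.0765, 0.194 and 0.0644). The 1 member with lower RNA, Nkx6-3 (chromosome 8, 23643287 to 23648964), fell from 6.81, 5.88 and 6.1 CPM to 0.63, 1.05 and 1.01 CPM, a log2 difference of -2.80 ± 0.29 (edgeR adjusted p = 1.54e-11). Nkx6-2, the highest Nkx gene in wild type, read 6.66, 9.15 and 7.12 CPM against 7.08, 9.76 and 7.6 CPM and was not called (0.08 ± 0.22).

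Pax genes were called in both directions. Pax1, a sclerotome factor, read 0.296, 0.817 and 2.03 CPM in 1A wild type at 0 h and 10.5, 10.8 and 8.78 CPM in the Eed knockout, and Pax3, of dorsal neural tube and muscle progenitors, had 1 read against 14 (ratio 13.1, 95% counting interval 1.99 to 552). Pax6 and the thyroid and kidney factor Pax8 were lower: Pax6 read 8.14, 8.98 and 11.4 CPM against 2.99, 3.14 and 2.7 CPM, and Pax8 read 2.07, 1.96 and 2.29 CPM against 0.315, 0.523 and 0.844 CPM. Groups of both genes were apart (log2 differences -1.66 ± 0.26 and -1.87 ± 0.49). Elp4 on the opposite strand shares 22.9% of the exon bases of Pax6 and was itself not called (-0.25 ± 0.13).

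Members of the remaining families that were called at 0 h were all higher. En2 read 7.7, 9.31 and 8.39 CPM in wild type and 19.4, 16.7 and 17.4 CPM in the Eed knockout. Gsx1, a factor of the ventral forebrain, read 3.11, 2.94 and 3.31 CPM against 8.5, 11.3 and 7.93 CPM, and Hmx1, of eye and ear, 1.02 to 1.18 CPM against 6.08 to 7.08 CPM. Every knockout library of the 3 genes was above every wild-type one. Uncx, which patterns somites, had 3 reads against 48 (ratio 14.9, 95% counting interval 4.81 to 74.9), and Tlx2, an enteric neuron factor, 3 against 30 (9.33, interval 2.9 to 47.8). Of the Dlx genes, Dlx2 was also called (1.44 ± 0.56), a call lost without replicate 1 or 2 of wild type or replicate 1 or 3 of the knockout (adjusted p up to 0.184), and the Hmx3 call (1.62 ± 0.56) was lost without replicate 3 of wild type or replicate 2 of the knockout (up to 0.154). In all, 29 of the 36 calls held whichever library was left out.

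**Figure D2:**
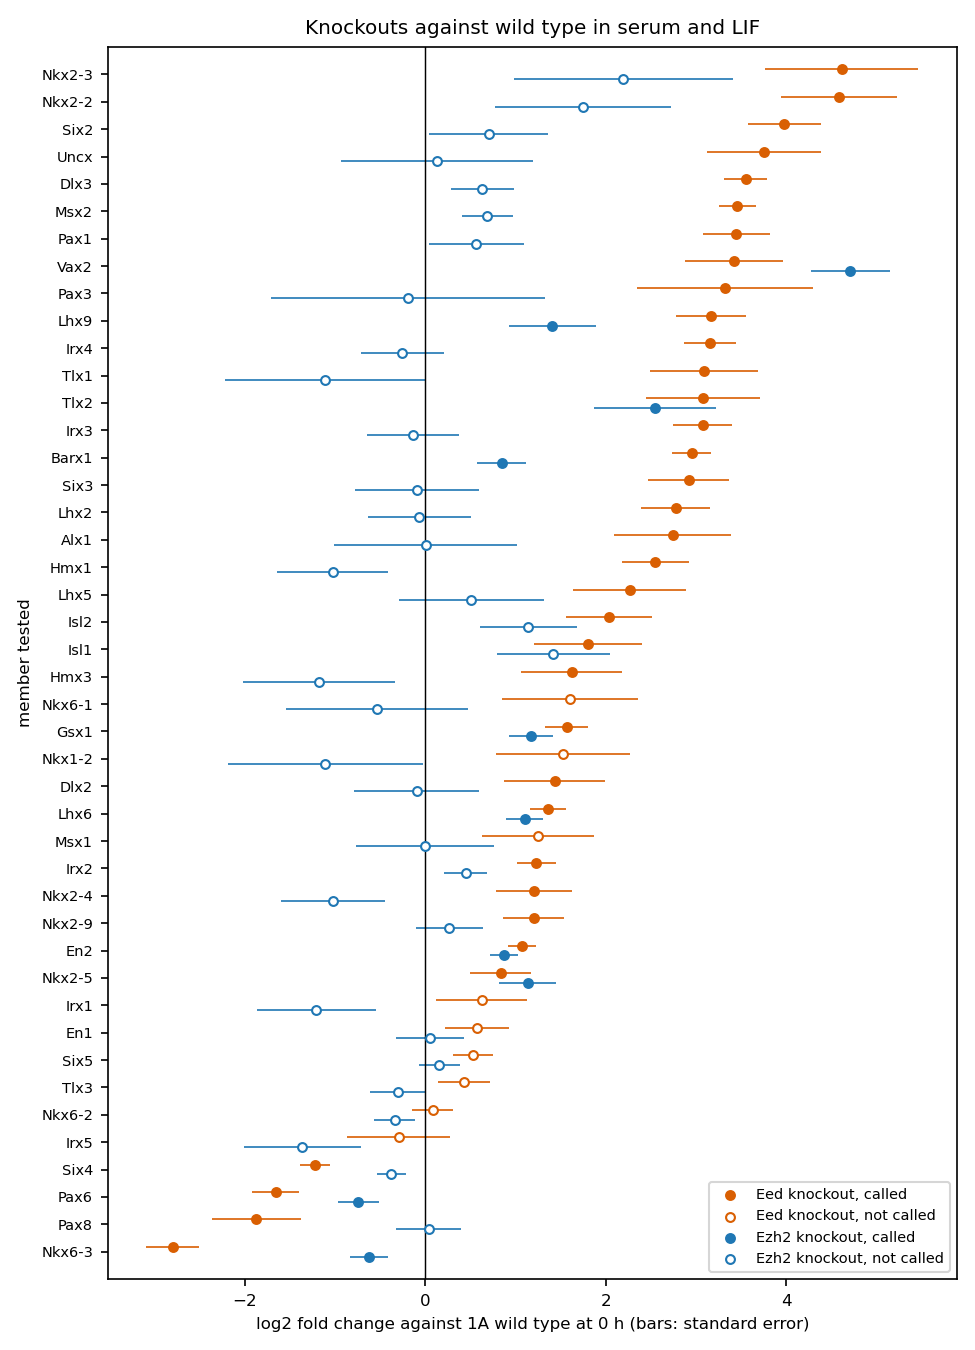
Log2 fold change of each tested member reported here against 1A wild type at 0 h in the Eed and the Ezh2 knockout, with bars for the standard error and filled points for members called at an adjusted p under 0.05. Most filled Eed knockout points lie to the right of 0, with Six2 at 3.98 and Msx2 at 3.46, while the filled Ezh2 knockout points include Vax2 at 4.71, Gsx1 at 1.17 and Lhx6 at 1.10.

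These counts differed in the authors' other table, while edgeR with the size factors of DESeq2 gave the same 31 higher and 5 lower. The authors' second deposited table, in which the counts had been adjusted by the RUV procedure (removal of unwanted variation), held 58 members that could be tested, and there 9 were higher and 1 lower in the Eed knockout at 0 h, with a median log2 difference of 0.27. Over all genes 3005 were called in that table, against 7488 in the raw counts, so calls were fewer in general. The values, the test and the members tested all differed from those of the raw counts. Of the 36 members called in the raw counts 27 kept their direction in that table, 9 were called in the same direction (En2, Lhx6, Msx2, Nkx2-2, Pax1, Pax8, Tlx2, Uncx and Vax2), and 9 had the other sign, Dlx3 (-0.08), Irx4 (-0.38) and Isl2 (-0.89) among them. In the same table the Eed gene itself scored 560 to 743 in the Eed knockout at 0 h and 922 to 1009 in 1A wild type, a much smaller gap than in the raw counts, and its settings are not stated. At 96 h those scores of Eed were 955 to 972 and 1065 to 1143. The other targeted gene, Ezh2, kept a wide gap there. It scored 98 to 112 in the Ezh2 knockout against 1294 to 1464 in 1A wild type at 0 h, and 101 to 114 against 1410 to 1472 at 96 h.

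Marker genes of other cell types moved in the same libraries. All 7 endoderm markers (Sox17, Gata4, Gata6, Foxa2, Sox7, Dab2, Pdgfra) and all 6 trophoblast markers (Cdx2, Eomes, Hand1, Elf5, Krt8, Krt18) were higher in the Eed knockout at 0 h. Their summed levels were 402 to 420 CPM against 23.8 to 27.3 CPM in 1A wild type for endoderm and 1460 to 1930 CPM against 209 to 257 CPM for trophoblast, and no gene of either list was at 0 in either group. The 8 pluripotency markers gave 2 higher and 5 lower, with a sum of 3140 to 3290 CPM against 4270 to 4410 CPM. Of the neural list 1 was higher and 4 lower of 7 tested, and 2 of its 10 genes had no count in the Eed knockout. Mesoderm (4 tested) gave 2 higher and 1 lower, neural crest (3 tested) 1 higher, and fibroblast markers (4 tested) 3 higher and 1 lower at a sum of 13.9 to 15.0 CPM against 6.66 to 10.9 CPM. Among 20 other Polycomb genes 8 were higher and 8 lower, and of the demethylase genes Kdm6a and Kdm6b 1 was lower. The part of such cells in the levels of the homeobox and Pax genes was not tested.

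At 96 h of 2i the Eed knockout again had most tested members above 1A wild type. The counts were 36 higher, where 30.9% of all genes tested were higher, and 3 lower, where 24.4% were lower, with a median log2 difference of 1.94 over the members tested. Irx3 read 0.478, 0.381 and 0.367 CPM in wild type and 10.3, 9.77 and 12.2 CPM in the knockout, Dlx3 0.796, 0.763 and 0.918 CPM against 10.4, 10.4 and 9.8 CPM, and Irx4 0.318, 0.0 and 0.734 CPM against 9.33, 9.19 and 9.1 CPM. All 3 were well separated (log2 differences 4.64 ± 0.31, 3.59 ± 0.24 and 4.62 ± 0.34). Six2 had 3 reads over the wild-type libraries and 122 over the knockout libraries (ratio 33.8, 95% counting interval 11.3 to 166), and Isl2 read 0.159, 0.381 and 0.551 CPM against 6.84, 6.71 and 5.88 CPM. Barx1 and Msx2 were higher by 3.50 ± 0.26 and 1.98 ± 0.16. In the RUV-normalized table the counts were 9 higher and 1 lower, 26 of the 39 calls kept their direction, and Dlx3 (-0.73) and Msx2 (-0.53) were among those with the other sign. Vax2, which was not called in the raw counts (0.24 ± 0.24), was called lower there (-1.34, limma adjusted p = 0.0028). Calls over all genes numbered 3486 in that table and 8337 in the raw counts.

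Between the 2 times, 27 of the 46 tested members were higher in the Eed knockout at both, where 18.4% of all genes tested were, and 2 were lower at both, Nkx6-3 and Six4, where 12.5% of all genes were. The 96 h difference of Six4 was 0.38 in the RUV-normalized table. Another 4, Gsx1, Lhx5, Tlx2 and Vax2, were called higher at 0 h and not at 96 h (7.97% of all genes). A missing call is not a missing difference: at 96 h Lhx5 read 1.24, 0.875 and 0.84 CPM against 0.478, 0.572 and 0.184 CPM in 1A. A further 9 were called higher at 96 h and not at 0 h (12.5%). Of the latter, Pax6 and Pax8 were lower at 0 h and higher at 96 h, when Pax6 had 1 read in 1A wild type and 20 in the knockout (ratio 16.6, 95% counting interval 2.66 to 689); 2.07% of all genes had that pattern. Tlx2 did the reverse, as did 1.25% of all genes, and at 96 h read 16.2, 13.5 and 16.2 CPM in wild type against 8.24, 9.19 and 10.4 CPM. The called difference at 96 h was lost without some single library for Alx1, Lhx6, Pax1 and Pax8: for Pax8 without replicate 3 of the knockout (adjusted p = 0.0522), for Alx1 without replicate 1 or 3 of wild type or 3 of the knockout (up to 0.134), for Lhx6 without any library but replicate 1 of the knockout (up to 0.141), and for Pax1 without any but replicate 3 of wild type (up to 0.237). At 96 h the endoderm list summed to 105 to 111 CPM in the Eed knockout against 11.3 to 12.3 CPM and the trophoblast list to 2560 to 2670 CPM against 310 to 372 CPM.

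Over the whole time course the separation of the 2 lines in CPM was complete for a group of members. For 15 of the 46 tested members all 15 Eed knockout libraries lay above all 15 of 1A wild type, which held for 6.98% of all genes tested: Alx1, Barx1, Dlx3, En2, Hmx1, Irx3, Irx4, Isl2, Lhx2, Lhx5, Msx2, Nkx2-3, Nkx2-4, Six2 and Six3. Some of them, such as Lhx5 and Nkx2-3, passed the low-count filter only through the Eed knockout. The count therefore describes the tested members and not the whole set. It is also a count for CPM from the raw counts. In the RUV-normalized table at 0 h, En2 stayed apart, at 88 to 103 in the Eed knockout against 52 to 62 in 1A. Dlx3 scored 14 to 16 there against 13 to 19, and Isl2 3 to 5 against 7 to 11. Nkx6-3 alone lay below throughout, at 0.147 to 1.05 CPM against 1.63 to 6.81 CPM, where 2.37% of all genes did. Within the knockout several of these genes had a course of their own. Dlx3 went from 11.4 ± 0.524 CPM at 0 h to 34.6 ± 2.42 CPM at 48 h and was back at 10.2 ± 0.339 CPM at 96 h, whereas 1A wild type stayed between 0.626 and 1.37 CPM in every library. Irx4 was highest at 24 h, 26.9 ± 0.478 CPM, and Irx3 and Isl2 at 48 h, 17.3 ± 0.52 and 12.5 ± 2.48 CPM. Barx1 had its highest mean at 0 h. Msx2 was highest in the middle of the course in both lines: the knockout went from 23.0 ± 3.91 to 48.4 ± 2.19 CPM at 24 h and 25.8 ± 3.06 CPM at 96 h, and wild type from 2.0 ± 0.497 to 12.4 ± 1.45 CPM at 48 h and 6.54 ± 1.4 CPM. These intermediate times were not tested between lines.

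**Figure D3:**
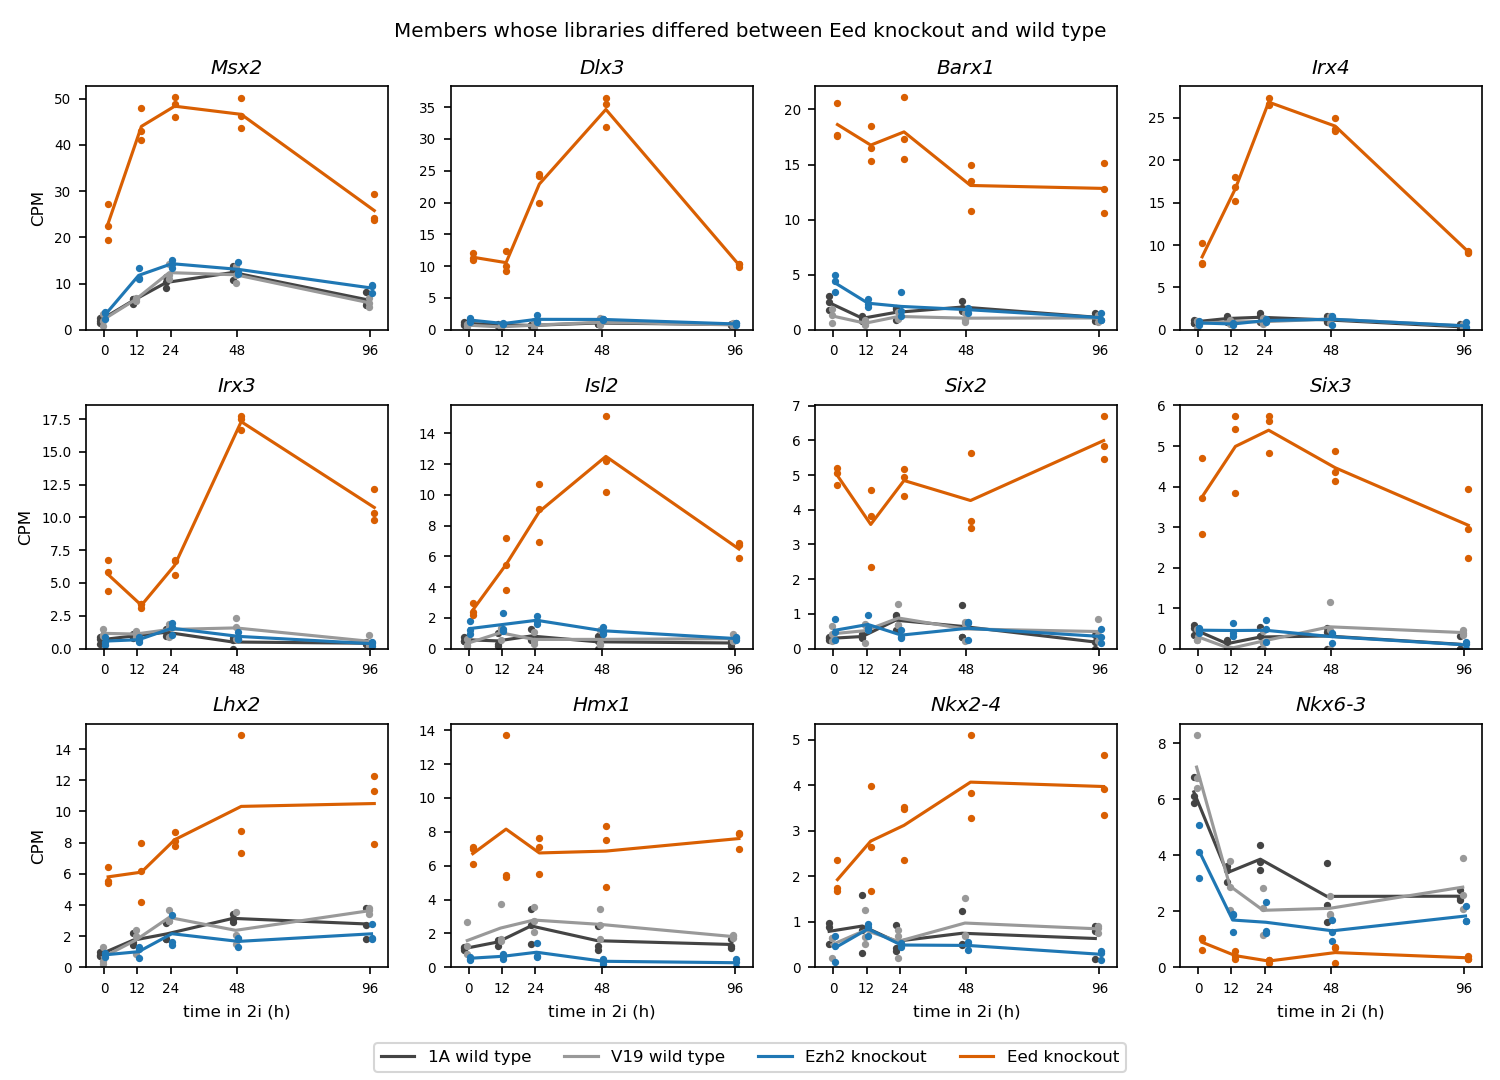
CPM of 12 members in the 4 lines against time in 2i, with a line through the means and a point for each library, shifted slightly sideways by line so that they can be seen. In each panel other than Nkx6-3 the 15 Eed knockout points lie above the 15 points of 1A wild type, with maxima at 24 or 48 h for Irx4, Dlx3, Irx3, Isl2 and Msx2.

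The Ezh2 knockout showed no such shift of the group. At 0 h 8 of the 46 tested members were higher than in 1A wild type, where 11.9% of all genes tested were higher, and 2 were lower, where 10.9% were lower. The median log2 difference of the tested members was 0.05, and over all 76 members the mean was higher for 41 and lower for 30. Vax2, a factor of the ventral eye (chromosome 6, 83688221 to 83715295), stood apart: it read 0.296, 0.327 and 0.254 CPM in 1A wild type and 8.6, 7.76 and 8.63 CPM in the Ezh2 knockout. Its difference of 4.71 ± 0.44 (edgeR adjusted p = 1.80e-12) exceeded the 3.42 ± 0.54 of the Eed knockout, where it read 4.09, 2.44 and 3.55 CPM. Vax2 was also the 1 member whose 15 Ezh2 knockout libraries all lay above all 15 of 1A wild type, which held for 0.159% of all genes tested. No member lay below throughout (0.0928% of all genes).

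The other higher members at 0 h in the Ezh2 knockout were En2, Lhx6, Gsx1, Tlx2, Nkx2-5, Barx1 and Lhx9. En2 read 16.5, 14.2 and 16.0 CPM against 7.7, 9.31 and 8.39 CPM, Lhx6 6.19, 5.47 and 5.71 CPM against 2.52, 2.94 and 2.54 CPM, and Gsx1 6.19, 6.36 and 8.48 CPM against 3.11, 2.94 and 3.31 CPM. All 3 were separated (log2 differences 0.88 ± 0.16, 1.10 ± 0.20 and 1.17 ± 0.24). Tlx2 had 23 reads against 3 (ratio 6.39, 95% counting interval 1.93 to 33.3). Lower were Pax6, at 5.33, 6.49 and 4.78 CPM against 8.14, 8.98 and 11.4 CPM, and Nkx6-3, at 4.13, 3.18 and 5.09 CPM against 6.81, 5.88 and 6.1 CPM. Only 5 of the 10 calls held whichever library was left out. Lhx9 was lost without replicate 1 or 2 of the Ezh2 knockout or any wild-type replicate, Barx1 without replicate 2 of either line, Nkx2-5 without replicate 2 of wild type, Nkx6-3 without replicate 1 or 2 of the knockout or 1 of wild type, and Pax6 without replicate 3 of either line (adjusted p up to 0.0831, 0.136, 0.0713, 0.201 and 0.0719). After RUV normalization 5 members were higher and none lower, and En2, Lhx6, Tlx2 and Vax2 were called in the same direction as in the raw counts. Calls over all genes numbered 3272 after that step and 3433 in the raw counts. The endoderm list, with all 7 genes higher, summed to 57.8 to 64.3 CPM in this line at 0 h, and the trophoblast list, with 3 higher and 2 lower, to 148 to 154 CPM. Other Polycomb genes gave 7 higher and 3 lower of 20. Their part in these levels was not tested.

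At 96 h 4 members were higher in the Ezh2 knockout, where 6.56% of all genes tested were higher, and 2 were lower, where 6.65% were lower. Nkx1-2, a factor of caudal progenitors, read 11.4, 13.3 and 13.1 CPM against 3.82, 5.91 and 4.22 CPM in 1A wild type. The groups were separate by a wide margin (log2 difference 1.45 ± 0.22), and the call held without any 1 library. Lhx6 and Vax2 were higher and Hmx1 and Nkx6-2 lower with less certainty (0.82 ± 0.20, 0.69 ± 0.23, -2.14 ± 0.67 and -0.68 ± 0.22). The count of 6 dropped to 3 without replicate 2 of the Ezh2 knockout, to 2 without its replicate 3 and to 3 without replicate 1 of wild type. Only Lhx6 and Vax2 were called higher at both times, where 2.24% of all genes were. The 96 h call of Vax2 was lost without any library but replicate 2 of wild type (adjusted p up to 0.176). That of Lhx6 was lost without replicate 3 of the knockout or replicate 1 of wild type (up to 0.15). Called higher at 0 h and not at 96 h were 6 members (9.67% of all genes), and 2 were called higher at 96 h and not at 0 h (4.32%). After RUV normalization the counts at 96 h were 2 higher and 2 lower. Calls over all genes numbered 1702 after that step and 1992 in the raw counts.

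Set against each other, the knockouts differed for most tested members. At 0 h 27 were higher in the Eed than in the Ezh2 knockout, where 23.6% of all genes tested were higher, and 6 were lower, where 21.7% were lower; the median log2 difference was 1.64. Irx4 differed by 3.41 ± 0.28, Msx2 by 2.77 ± 0.18, Dlx3 by 2.91 ± 0.20, Hmx1 by 3.57 ± 0.41 and Barx1 by 2.11 ± 0.18. Lower in the Eed knockout were, among others, Six4, Nkx6-3, Vax2, Pax6 and Pax8, Vax2 by -1.29 ± 0.26. En2, Lhx6 and Gsx1, higher than wild type in both lines, were not called between them. The call was lost without some single library for Dlx2, Irx1, Lhx5, Nkx1-2, Nkx2-9, Nkx6-1 and Tlx3 (adjusted p up to 0.204 for Nkx6-1). At 96 h 39 were higher, where 28.1% of all genes tested were higher, and 4 were lower, where 24.0% were lower, or 43 in either direction where 52.1% of all genes were (Six4, Nkx6-3, Nkx1-2 and Tlx2). Calls of Irx5, Msx1, Nkx2-2, Pax6 and Six5, among others, at 96 h were lost without some single library (up to 0.21 for Six5). Its median was 2.14, or 2.08 with members that had no read in 1 group set at a bound of 3 reads. In the RUV-normalized table the counts were 4 higher and 4 lower at 0 h and 10 higher and 3 lower at 96 h. At 0 h Dlx3 (-0.34), Barx1 (-0.45) and Six4 (0.21) had the other sign there without a call. Msx2 at 96 h was called lower in the Eed knockout there (-0.83, limma adjusted p = 0.00883). So was Isl2 at 0 h (-1.56, 0.0389), which was not called in the raw counts. Calls over all genes were also fewer there, 1737 against 6832 in the raw counts at 0 h and 2715 against 7863 at 96 h.

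Between the wild-type lines the share of tested members called at 0 h, 8.7% in either direction, was near the 10.5% of all genes. In V19 at 0 h 4 members were higher than in 1A, where 5.01% of all genes tested were higher, and none was lower, where 5.53% were lower. En2 read 17.7, 17.6 and 16.0 CPM against 7.7, 9.31 and 8.39 CPM, a log2 difference of 1.02 ± 0.16 that held without any 1 library and is about the size seen in the 2 knockouts of 1A. Vax2 read 2.76, 1.23 and 1.28 CPM in V19 against 0.296, 0.327 and 0.254 CPM (2.55 ± 0.63), a call lost without replicate 1 of V19 (adjusted p = 0.103). The Pax6 and En1 calls were lost without most single libraries (adjusted p up to 0.147 and 0.326). The count fell to 2 without replicate 1 or 2 of 1A or replicate 3 of V19, and DESeq2 also called 2. No member was separated over all 15 against 15 libraries (0.212% of all genes above and 0.152% below).

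Exposure to 2i for 96 h changed some members the same way in all 4 lines. Irx2, Lhx2, Nkx1-2 and Tlx2, 4 of the 46 tested, were higher at 96 h than at 0 h in each, where 9.08% of all genes tested were. En1, Gsx1, Lhx9 and Pax6, another 4, were lower in each, where 7.08% of all genes were. Both shares are near those of all genes. Some of these calls rested on 1 library: Lhx9 was lost in 1A without replicate 1 at 0 h or 2 at 96 h (adjusted p up to 0.0797) and in V19 without replicate 3 of either time (0.0908), Lhx2 in the Ezh2 knockout without replicate 2 at 0 h (0.0571), and En1 in the Eed knockout without replicate 2 at 0 h or 1 at 96 h (0.113). In 1A wild type 8 members were higher, where 25.1% of all genes tested were higher, and 10 lower, where 23.5% were lower. Both directions together made 18 members there (48.6% of all genes). V19 gave 7 higher and 12 lower (24.8% and 22.7% of all genes), the Ezh2 knockout 6 and 16 (22.2% and 20.7%), and the Eed knockout 12 and 10 (23.3% and 16.4%), together 22 where 39.7% of all genes were called. Median log2 changes of the tested members were -0.56, -0.35, -0.78 and 0.13 in that order, or -0.42, -0.32, -0.71 and 0.13 with members without a read in 1 group set at the bound. In the RUV-normalized table all 18 calls in 1A kept their direction and threshold, as did 18 of 19 in V19, 21 of 22 in the Ezh2 knockout and 12 of 22 in the Eed knockout. There the Eed knockout response was 5 higher and 9 lower, with a median of -0.18. Endoderm markers fell in the same libraries, 4 of 7 in 1A, 6 in V19 and all 7 in each knockout, and none rose. Of the 6 trophoblast markers 3 rose in 1A, 2 in V19 and 4 in each knockout, and 1 fell in each line. Of 7 neural markers 5 fell in 1A and in V19, 4 in the Ezh2 knockout and 2 in the Eed knockout, and 1 rose in 1A and in the Eed knockout. The part of such cells in these changes was not tested.

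Tlx2 (chromosome 6, 83045306 to 83047206) went from a trace to the highest level per length in 1A. It read 0.148, 0.0 and 0.509 CPM at 0 h and 16.2, 13.5 and 16.2 CPM at 96 h in 1A, 3 reads against 261 (ratio 86.2, 95% counting interval 29.2 to 420). The gain was gradual, with means of 0.508, 2.02 and 8.13 CPM at 12, 24 and 48 h, and at 96 h Tlx2 was the first member per length, at 10.7 ± 1.07 CPM per kb. In V19 it reached 15.2, 15.2 and 12.6 CPM, in the Ezh2 knockout 13.4, 15.6 and 13.2 CPM and in the Eed knockout 8.24, 9.19 and 10.4 CPM. Nkx1-2 (chromosome 7, 132197968 to 132201366) went from 0.444, 0.163 and 0.0 CPM to 3.82, 5.91 and 4.22 CPM in 1A and, in the Ezh2 knockout, from 2 reads to 261 (ratio 128, interval 35.0 to 1060). Vax2 went from 0.292 ± 0.0363 to 5.71 ± 1.17 CPM in 1A, so that its 96 h level approached the 8.33 ± 0.496 CPM that the Ezh2 knockout had at 0 h. Irx2 rose by 1.82 ± 0.20 in 1A, from 3.4, 2.94 and 2.03 CPM to 10.8, 10.1 and 9.91 CPM.

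Gsx1 (chromosome 5, 147125506 to 147127757) was lost within the first interval. The 1A libraries read 3.11, 2.94 and 3.31 CPM at 0 h and 0 reads in all 3 libraries at 12 h, V19 likewise fell from 4.23, 5.74 and 5.32 CPM to 0 reads, and the Eed knockout from 8.5, 11.3 and 7.93 CPM to 0.0, 0.147 and 0.0 CPM. At 96 h it was at least 25.8-fold lower in V19 (79 reads against 0) and at least 48.1-fold lower in the Ezh2 knockout (141 against 0), with the bound taken at 3 reads over the group. Pax6 (chromosome 2, 105499241 to 105528755) declined over the whole course in 1A, with means of 9.52, 3.47, 1.58, 0.774 and 0.0531 CPM, which is 155 reads at 0 h against 1 at 96 h (ratio 157, 95% counting interval 27.7 to 6220). V19 went from 14.9 ± 1.21 to 0.268 ± 0.239 CPM and the Eed knockout from 2.94 ± 0.222 to 0.978 ± 0.044 CPM. En1, a midbrain factor, had 32 reads at 0 h and 3 at 96 h in 1A (ratio 10.8, interval 3.37 to 55.0), and Pax8 had 35 and 1 (ratio 35.3, interval 5.94 to 1440).

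**Figure D4:**
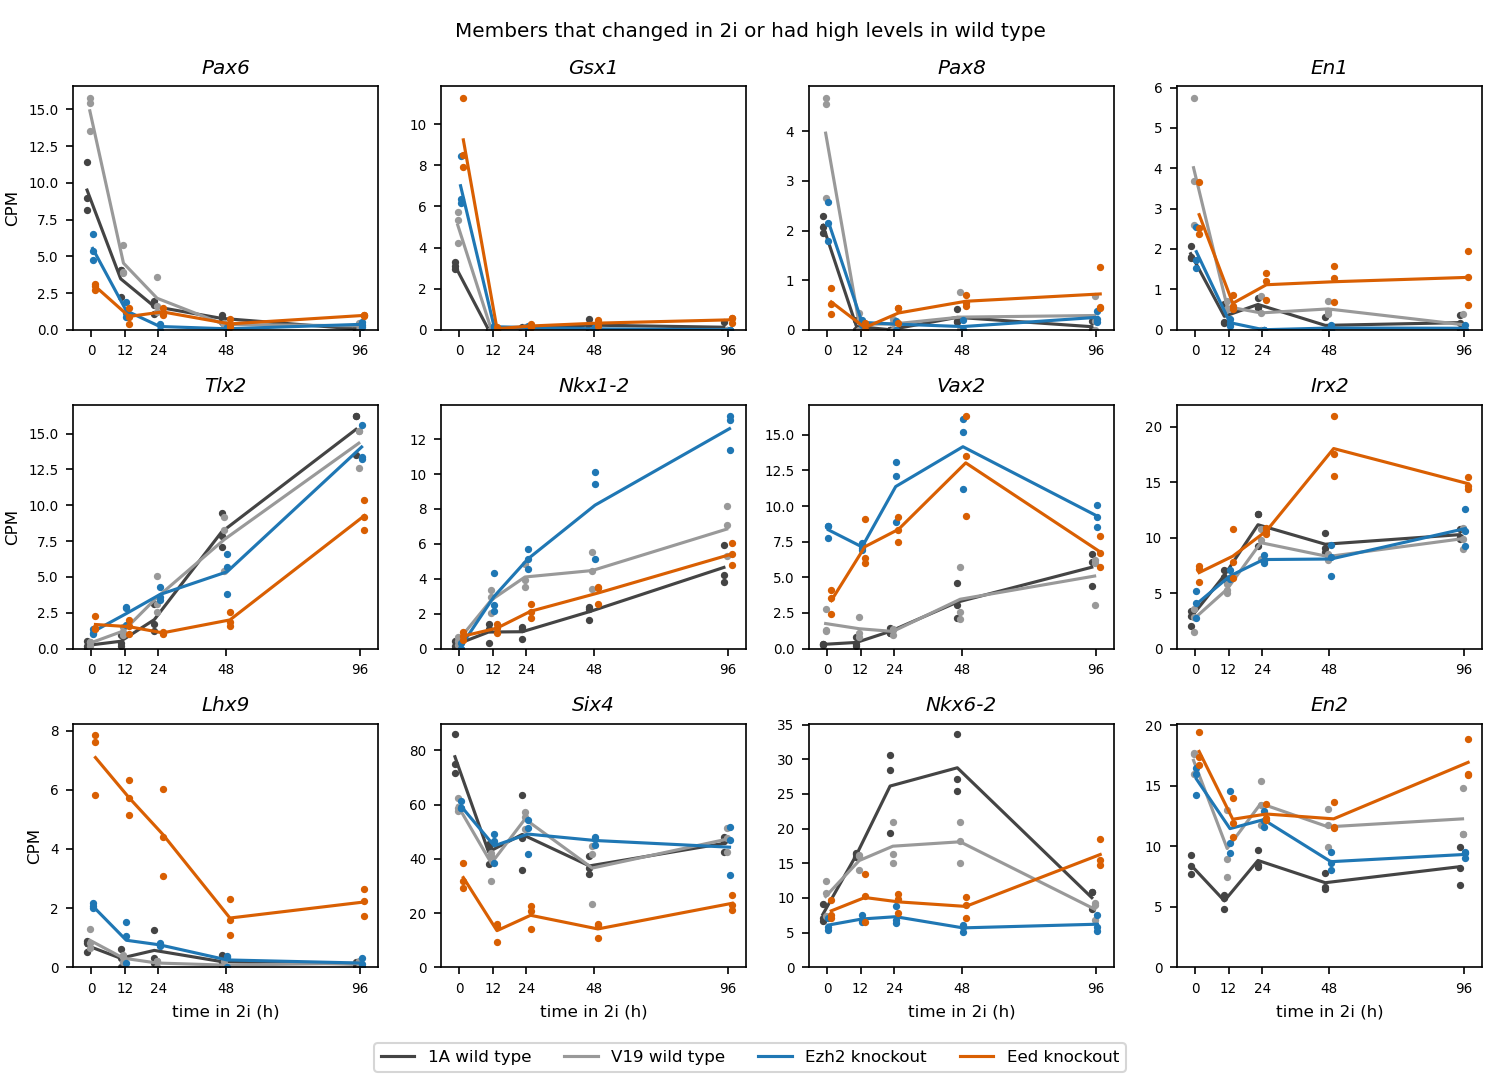
CPM of 12 members in the 4 lines against time in 2i, with a line through the means and a point for each library, shifted slightly sideways by line so that they can be seen. Gsx1 stays at or under 0.583 CPM from 12 h on in all 4 lines, Pax6 declines at each step in 1A, and Tlx2 and Nkx1-2 climb to 96 h.

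Members with high wild-type levels also changed. Six4 went from 77.6 ± 7.4 to 45.7 ± 2.92 CPM in 1A. Nkx6-2 passed through a maximum: means in 1A were 7.64, 16.2, 26.1 and 28.8 CPM at 0, 12, 24 and 48 h, and the 3 libraries at 96 h read 8.44, 10.9 and 10.8 CPM. In V19 the means were 10.2, 15.4, 17.5, 18.1 and 8.39 CPM. At 48 h it stood at 28.8 ± 4.36 CPM in 1A, 18.1 ± 2.97 CPM in V19, 8.79 ± 1.56 CPM in the Eed knockout and 5.70 ± 0.475 CPM in the Ezh2 knockout, with no library of either knockout above 10.2 CPM and no wild-type library below 15.1 CPM. This time was not tested. Its wild-type groups hold the libraries farthest from their groups, replicates 2 and 3 of V19 (deviations 0.439 and 0.349) and replicate 3 of 1A (0.343). Inpp5a on the opposite strand shares 11.9% of the exon bases of Nkx6-2, and from 0 h to 96 h in 1A it was not called (0.23 ± 0.11). That comparison does not cover the levels at 48 h, so its part in the maximum and in the gap between lines was not tested. Of the 46 tested members, 20 had their highest mean at 0 h in 1A, 21 in V19, 23 in the Ezh2 knockout and 15 in the Eed knockout.

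The response to 2i itself differed between the Eed knockout and 1A wild type for 12 members, 7 with a more positive and 5 with a more negative change, where 14.9% and 12.4% of all genes tested did. Both directions together made 26.1% of the tested members, near the 27.3% of all genes. Pax6 fell by 1.57 on the log2 scale in the Eed knockout, and its response differed from that of wild type by 5.31 ± 0.88, while Pax8 differed by 5.12 ± 1.06; both sizes rest on 1 wild-type read at 96 h and depend on the prior count of the fit. Tlx2, Vax2 and Msx2 gained less in the knockout, by -3.80 ± 0.64, -3.18 ± 0.62 and -1.48 ± 0.29. These differences held whichever library was left out, and those of En1, Irx1, Irx2, Isl2 and Pax1 did not; the count fell to 7, with 3 more positive and 4 more negative, without replicate 1 of 1A at 0 h. The balance also turned to 3 and 4 without the filter on low counts, to 2 and 5 with only genes averaging 1 CPM, and to 3 and 5 in the RUV-normalized table. For the Ezh2 knockout 1 member had a more positive response, where 5.42% of all genes tested did, and 3 a more negative one, where 6.76% did. That was 8.7% of the tested members, against 12.2% of all genes. The more negative ones were Vax2 (-4.02 ± 0.55), Tlx2 (-2.68 ± 0.70) and En2 (-0.70 ± 0.23). Vax2 went from 8.6, 7.76 and 8.63 CPM to 10.1, 9.26 and 8.51 CPM there, a change that was not called. The En2 and Tlx2 differences were lost without some single library, for Tlx2 replicate 2 of 1A at 0 h (adjusted p = 0.0561), and after RUV normalization 3 members were called in each direction.

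**Figure D5:**
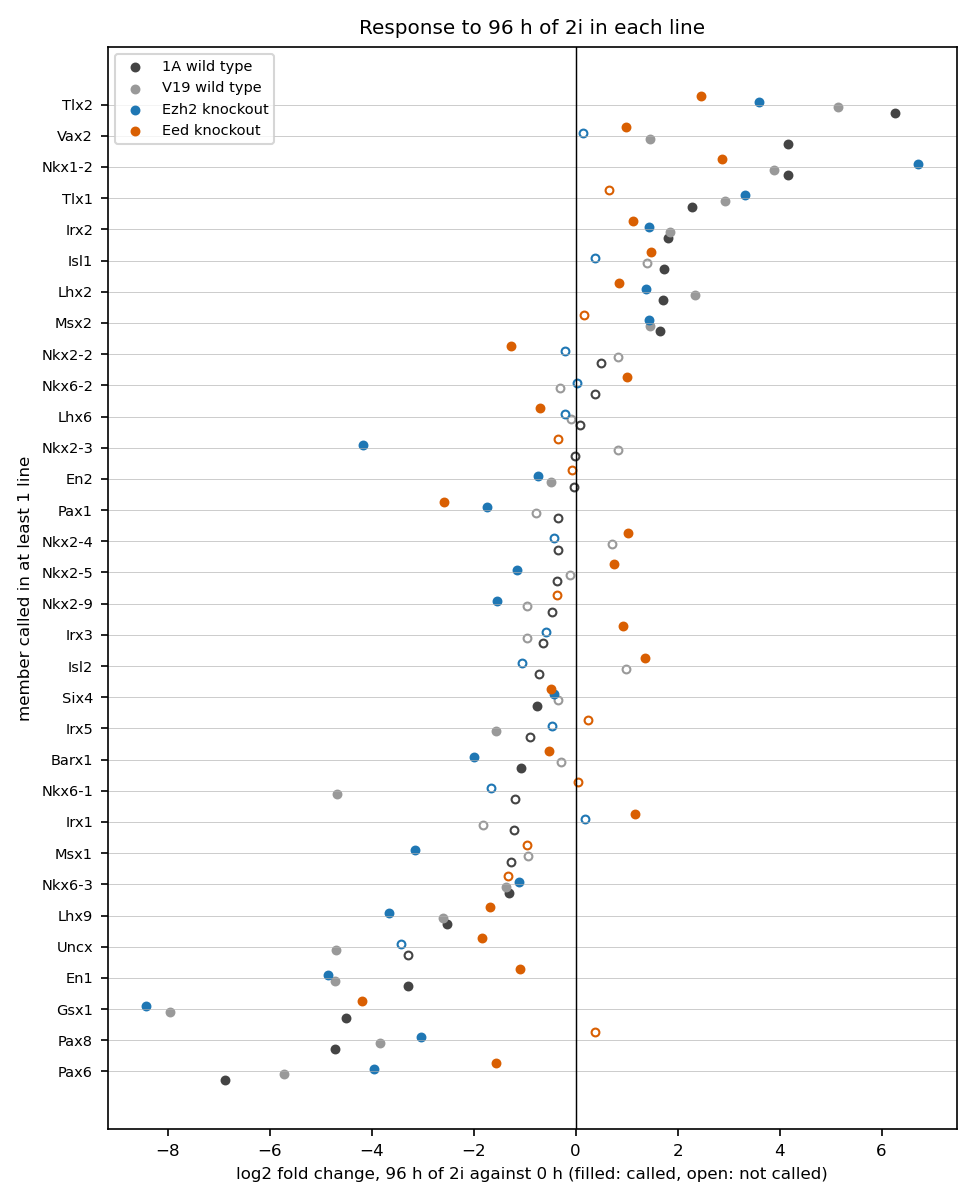
Log2 fold change from 0 h to 96 h of 2i in each of the 4 lines, for members reported here that were called in at least 1 line, with filled points for calls. Tlx2 and Nkx1-2 lie to the right and Gsx1, Pax6 and En1 to the left in all 4 lines, with the Eed knockout points of Pax6 (-1.57) and Tlx2 (2.46) nearest to 0.

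Some members lie next to each other. Within 100 kb there were 11 pairs, made of 20 members. Dlx3 and Dlx4 are 15.2 kb apart, and in the Eed knockout at 0 h Dlx3 read 11 to 12 CPM and Dlx4, which was not tested, stood higher than in 1A too but at a lower level, at 0.787, 1.05 and 1.18 CPM against 0.148, 0.163 and 0.0 CPM in 1A. Six2 and Six3 were higher together. Nkx2-2 and Nkx2-4, 40.5 kb apart, were both higher. Vax2os, an RNA named after Vax2 that shares no exon bases with it, followed Vax2: it was higher by 4.55 ± 0.58 in the Ezh2 knockout and by 2.88 ± 0.77 in the Eed knockout at 0 h, and rose by 4.46 ± 0.60 in 1A in 2i. Exon bases were shared with a gene on the opposite strand by 19 members, 13 of them tested, from 0.108% of Lhx2 to 64.4% of Irx2; values of these members may hold reads of the partner.

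The 30 members that were not tested had at most 1.46 CPM as the mean of any group. Their reads at 0 h summed to 55 in 1A, 71 in V19, 70 in the Ezh2 knockout and 193 in the Eed knockout, and 23 of the 30 had a higher and 5 a lower mean in the Eed knockout than in 1A. Pax9, for example, read 0.944, 1.74 and 1.69 CPM in the Eed knockout at 0 h against 0.0, 0.163 and 0.254 CPM, and Pax7 1.1, 1.05 and 0.338 CPM against 0.0, 0.163 and 0.0 CPM. Nkx2-6 and Pax4 had next to no reads in any line. A difference in these genes was often not detectable at this depth.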

How the data were processed

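Polyadenylated RNA from 60 libraries was read as single-end sequence on 2 flow cells whose reads were merged, per the labels' protocols. The submitters' processing notes name STAR 2.7.10b, featureCounts 2.0.3, MultiQC 1.14 and DESeq2 and the build GRCm39 (mm39), and the strand setting of the counting is not given in the sources used here. The authors deposited raw counts per gene, which are the values used throughout. A second table that the authors deposited holds a score per gene: whole numbers that came from the counts through the RUV procedure (removal of unwanted variation), at settings not given in the sources used here. A deposited table of transformed counts was not used.

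Counts of 50559 genes, of which 15098 had no count, were fitted in R 4.3.3 with edgeR 4.0.16 (quasi-likelihood test, trimmed-mean normalization) in a single model of the 20 groups. Genes were kept by expression in at least 1 group (minimum count 10, minimum total 15), and 13 comparisons were adjusted by the Benjamini-Hochberg method over all 15083 genes kept, with a call at an adjusted p under 0.05. The script was tested on simulated data. Alternatives were DESeq2 1.42.0, its size factors in edgeR, all genes unfiltered, only genes averaging 1 CPM, a replicate block, only the groups compared, limma 3.58.1 on log2(RUV score + 1), leaving out the doubted libraries (V19 at 48 h, both knockouts at 12 h, 1A at 24 h replicate 1), and leaving out each library.

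Named members are up to 14 called members with the smallest adjusted p in each knockout against 1A at 0 h, up to 8 in each other comparison, and the member with the highest mean CPM of each family; others were named after their values were seen. Values of some members are not reported here, though counts of members include them. The members and gene lists were chosen with earlier results of these data known. Replicates are labelled as biological, with no word on separate cultures, so p-values measure the spread between these libraries. Same-numbered libraries did not deviate together (correlations -0.143 to 0.107), so the numbers were not used to pair them. Within groups all 60 pairs of libraries differed by more than sampling noise (chi-square per degree of freedom 1.13 to 25.6). Intervals of count ratios are 95% exact intervals and cover counting error only. Gene positions are those of the count table (GRCm39), and promoters are from RefSeq (GRCm38.p6).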

Additional observations from a re-analysis of the deposited data

Results flagged for a closer look

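For 13 values reported here the change over 96 h of 2i differed between a knockout and 1A wild type by a test of the difference itself (edgeR quasi-likelihood test of the interaction, adjusted over all genes tested). With members not reported here, 26.1% of the tested members were called for the Eed knockout, where 27.3% of all genes were. For the Ezh2 knockout the shares were 8.7% and 12.2%. As a group the members thus did not exceed all genes. Responses in the Eed knockout were more positive for Pax6 (log2 difference 5.31, adjusted p = 4.11e-06), Pax8 (5.12, 0.000169), Irx1 (2.38, 0.0182), En1 (2.19, 0.0362) and Isl2 (2.08, 0.0493). They were more negative for Tlx2 (-3.80, 6.19e-06), Msx2 (-1.48, 6.30e-05), Vax2 (-3.18, 6.47e-05), Pax1 (-2.24, 0.0207) and Irx2 (-0.70, 0.0440). In the Ezh2 knockout the response was more negative for Vax2 (-4.02, adjusted p = 3.03e-07), Tlx2 (-2.68, 0.00555) and En2 (-0.70, 0.0345).

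Pax6, Pax8, Tlx2, Msx2 and Vax2 in the Eed knockout and Vax2 in the Ezh2 knockout passed the threshold whichever of the 12 libraries was left out. Without some single library the adjusted p reached 0.139 for En1, 0.0869 for Irx1 (1A replicate 1 at 0 h), 0.144 for Irx2, 0.191 for Isl2 and 0.159 for Pax1 (1A replicate 1 at 0 h or 2 or 3 at 96 h) in the Eed knockout. In the Ezh2 knockout it reached 0.152 for En2 and 0.0561 for Tlx2 (1A replicate 2 at 0 h). All of these differences share the 1A libraries, and those of Pax6, Pax8, Tlx2 and Vax2 rest on groups with few reads.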

How the results depend on the processing

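Counts of called members are given first, then single members. In the RUV-normalized table the Eed knockout gave 10 called members at 0 h and 10 at 96 h, and the Ezh2 knockout 5 and 4. Eed against Ezh2 gave 8 at 0 h and 13 at 96 h, V19 3, the 2i response of the Eed knockout 14, and the differences in response 8 (Eed) and 6 (Ezh2). The cause was not tested. Over all genes the calls there also changed from those of the raw counts. For Eed they were 3005 against 7488 at 0 h and 3486 against 8337 at 96 h. For Ezh2 they were 3272 against 3433 and 1702 against 1992, between the knockouts 1737 against 6832 and 2715 against 7863, and for V19 1513 against 1590. DESeq2 gave 2 for V19. The groups compared alone gave 28 for Eed against Ezh2 at 96 h, with fewer members tested. For the Eed difference in response no filter and the filter at 1 CPM each gave 7. Leaving out each library gave 34 to 36 for Eed and 7 to 9 for Ezh2 at 0 h, 30 to 33 between them, 2 to 3 for V19, 36 to 40 for Eed and 2 to 5 for Ezh2 at 96 h, 41 to 42 between them, 17 to 18, 18 to 20, 18 to 22 and 19 to 21 for the responses of 1A, V19, Eed and Ezh2, and 7 to 12 and 3 to 4 for the differences. A replicate block gave 36 for Eed and 10 for Ezh2 at 0 h and 38 for Eed at 96 h, and changed 4 calls of single members: Isl2 between the knockouts at 0 h (adjusted p = 0.0421) and Pax8 between them at 96 h (0.0471) were gained, and Pax1 in Eed at 96 h (0.0533) and Six5 between the knockouts at 96 h (0.0517) were lost.

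In the RUV-normalized table the sign was reversed for Eed at 0 h in Dlx3 (-0.08), Irx4 (-0.38) and Isl2 (-0.89), and for Eed against Ezh2 at 0 h in Dlx3 (-0.34), Barx1 (-0.45), Isl2 (-1.56) and Six4 (0.21). At 96 h it was reversed for Eed in Dlx3 (-0.73), Msx2 (-0.53), Alx1 (-0.47), Irx2 (-0.32), Lhx2 (-0.23), Six4 (0.38) and Vax2 (-1.34), and for Eed against Ezh2 in Dlx3 (-0.5), Msx2 (-0.83), Irx2 (-0.3) and Six4 (0.42). Of these reversed values, those of Isl2 and Msx2 between the knockouts (at 0 h and 96 h) and of Vax2 for Eed passed the threshold there. The rest did not. The cause was not tested. Depth limits members under 1 CPM, whose groups hold a few reads each.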
